A study of Mus musculus with 6 samples.

Results

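Mouse macrophages contain a set of genes for making cholesterol and fatty acids from acetyl-CoA, and the 34 members described here are 18 enzymes of the sterol branch, 11 enzymes of the fatty acid and glycerolipid branch, and 5 genes that regulate or accompany them. The members were given by symbol, and their probes were taken from the array by that symbol, with Sc4mol as the older name of Msmo1. Of 51 such probes 50 were kept, which means that the scanner software marked them well above background throughout at least 1 group of 3 arrays, and the probe that was left out was a second one for Lpin1. All 34 members were measured, among 19574 features in all, each by its brightest kept probe, which was well above background on 6 of 6 arrays.

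The cells were bone marrow-derived macrophages of C57BL/6 mice, cultured for 7 d in medium with 10% serum and 20% conditioned medium of L929 cells, a fibroblast line whose medium supplies the growth factor M-CSF. The comparison asked how 6 h of 100 µM ADP, a nucleotide that damaged and activated cells release, alters their RNA. There were 3 control samples and 3 samples with ADP, with no genetic change named in the labels and an age not given in the sources used here, and the series' text gives each experiment a donor of its own. Each sample had its own 1-colour Agilent array, on which 50.3% to 51.9% of the spots were well above background and 0 were saturated. A level is the log2 signal of a probe after the 75th percentile of its array was subtracted, and a difference is the mean level with ADP minus that of the controls. Levels of different genes are not compared, since each probe has its own brightness.

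Cholesterol is built by the mevalonate pathway, in which acetyl-CoA becomes mevalonate, isoprenoids, squalene, lanosterol and at last cholesterol. Long-chain fatty acids are built from the same acetyl-CoA by acetyl-CoA carboxylase and fatty acid synthase, and are then elongated and desaturated. Both branches are switched on by the SREBP transcription factors: the protein SCAP carries them from the endoplasmic reticulum to the Golgi for cleavage when membrane sterol is low, and INSIG proteins hold them back when sterol is plentiful. SREBP2, from Srebf2, favours sterol genes and SREBP1, from Srebf1, favours fatty acid genes. In macrophages these genes work beside LXR, a sterol sensor that turns on cholesterol export.

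Across the 34 members, the RNA level with ADP was higher by a small amount in most and past the test in none. The difference was above 0 for 29 of 34, beside 50.8% of all features, and below 0 for 5, beside 49.2%. Its median was 0.17, a 1.13-fold difference, beside 0.00 over all features. Differences ranged from -0.21 for Fads1 to 0.43 for Acss2, and the 5 members below 0 were Mvk, Dhcr7, Srebf1, Acaca and Fads1. For 14 members every ADP array read above every control array, beside 9.67% of all features, and for 0 members every ADP array read below, beside 9.72%. The count of 14 was 7 after quantile normalization, beside 9.11% of features, and 9 with each array scaled to its median, beside 7.57%. The plot of differences by member shows these values, with the sterol and fatty acid enzymes mostly to the right of 0.

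**Figure D1:**
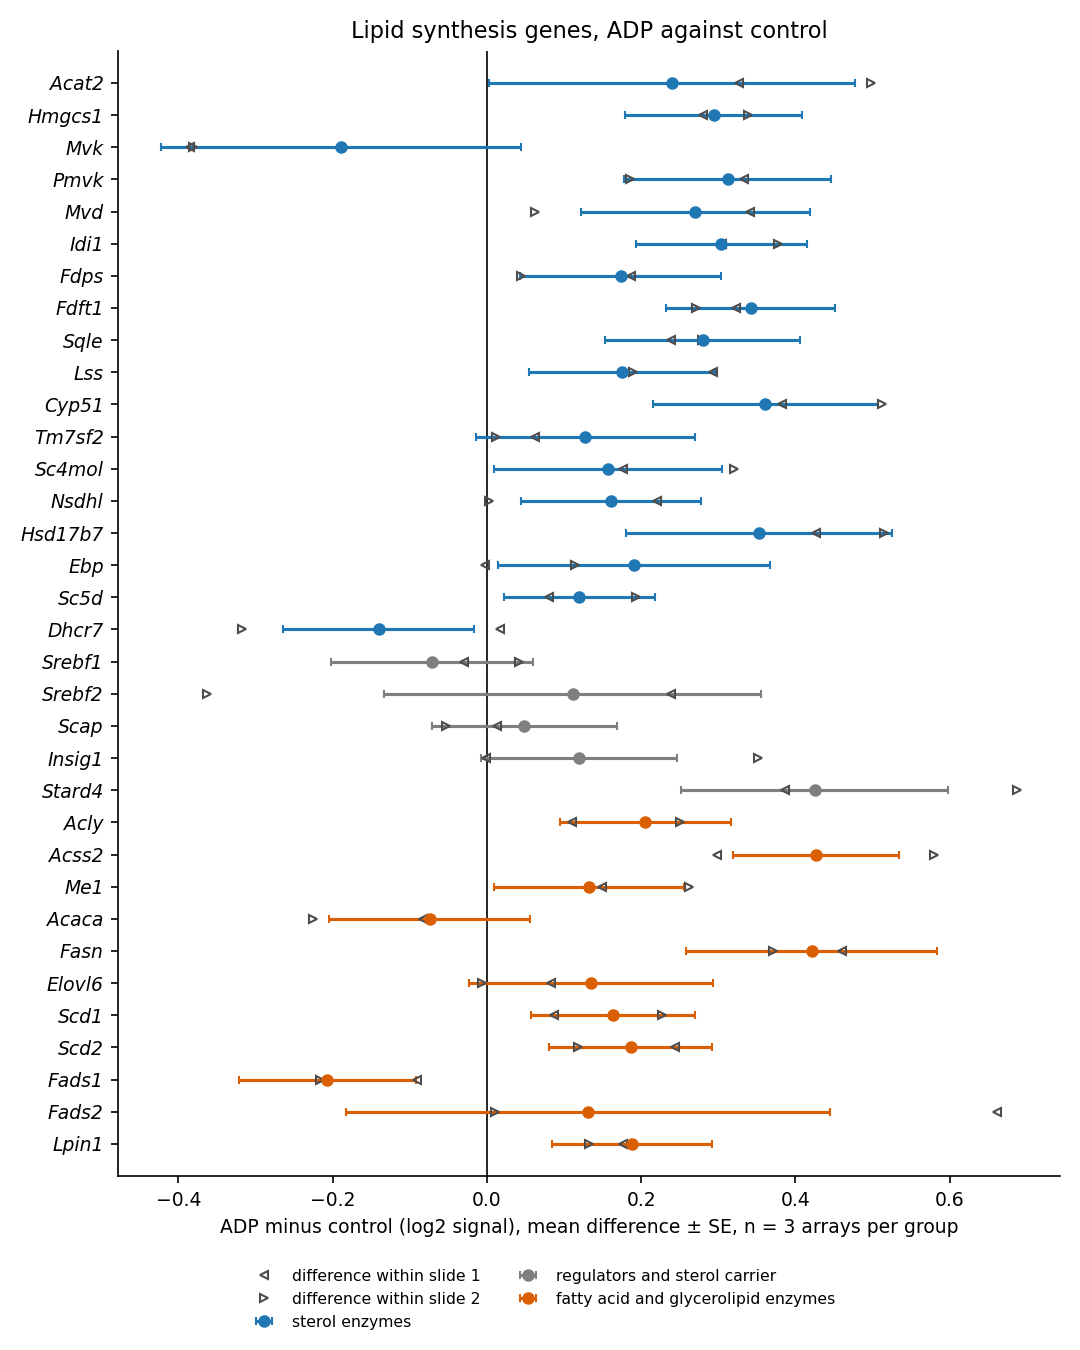
Difference between ADP and control for each of the 34 members, on the log2 signal scale along the horizontal axis. Dots are mean differences with SE over 3 arrays per group, coloured by role, and triangles are the differences within slide 1 and within slide 2. The dots of 29 members lie to the right of 0, and the 5 to the left are Mvk, Dhcr7, Srebf1, Acaca and Fads1.

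With limma and Benjamini-Hochberg adjustment over all 19574 features, 0 members passed an adjusted p of 0.05, and the share of all features that passed was 0.0%. The smallest adjusted p among the members in limma was 0.261, for Acss2, beside a smallest value of 0.260 over all features. Adjusted values tie, so this does not rank Acss2 among all features. Its unadjusted p in limma was 0.0062, and Acat1, not a member, had the same adjusted p at an unadjusted 0.0035. At an unadjusted p under 0.05, 7 members were higher, namely Hmgcs1, Idi1, Fdft1, Cyp51, Stard4, Acss2 and Fasn, beside 6.55% of features, and 0 were lower, beside 6.18%. In either direction, those 7 members stood beside 2491 of 19574 features. The count of 7 was 1 without control 1, beside 1381 features, and 1 without ADP array 3, beside 1163. It was 3 without ADP array 1, where the features rose to 2983. Over all 6 left-out arrays the count of members ran from 1 to 8. A permutation of 3 against 3 arrays cannot go below p = 0.1, so no single gene was tested that way. Leaving out 1 array moved the difference by over 1.5 times, or turned its sign, for 22 of the 34 members, 3 of them among the 14 without overlap (Stard4, Acly and Scd1).

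The arrays lay on 2 slides, with controls 1 and 2 and ADP array 1 on slide 1 and the other 3 arrays on slide 2. Values within a slide rest on 3 arrays each and carry no test. For 19 of the 34 members, the gap between the slides among the controls was larger than the difference between the groups. That gap sets control 3 alone against controls 1 and 2, so a slide and a donor cannot be told apart in it. The share over all features was not computed. Within both slides, 24 of 34 members were above 0, beside 29.7% of features, and 3 were below 0 in both, beside 32.4%. With slide as a block, limma again called 0 members, beside 0.0% of features, and at an unadjusted p under 0.05 it had 11 members higher, beside 10.8%, and 1 lower, beside 13.5%. When slide as a block was joined with variances that follow the signal and resist outlying genes, a setting chosen after the data were seen, 6 members passed an adjusted p of 0.05 in limma in the higher direction, beside 4.52% of features, and 1 in the lower, beside 5.38% (9.91% in either direction). Those higher were Idi1, Fdft1, Cyp51, Hsd17b7, Stard4 and Acss2, and the lower one was Mvk. With slide as a block and normexp background correction, also chosen after the data were seen, limma called 4 members, namely Cyp51, Stard4, Acss2 and Mvk, beside 6.81% of features in either direction.

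**Figure D2:**
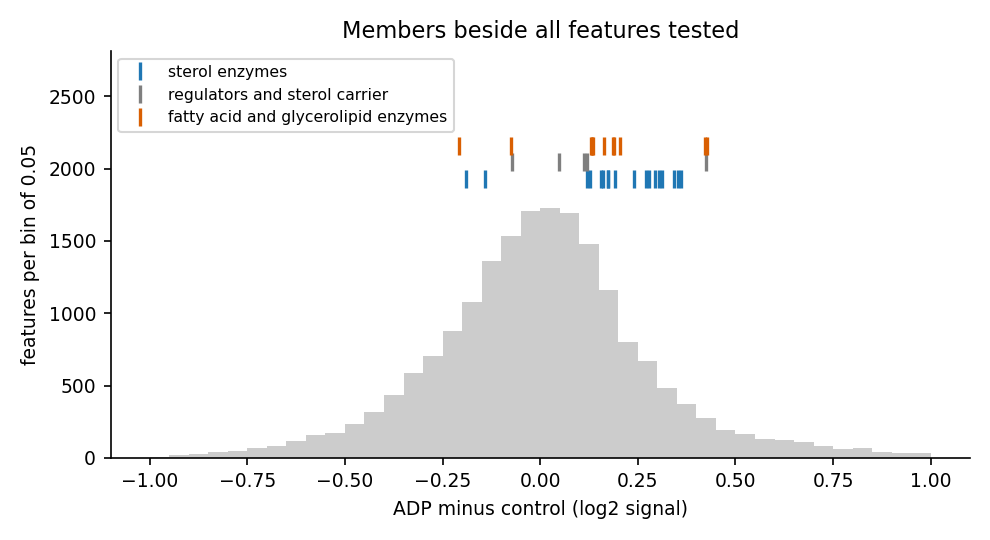
Distribution of the difference between ADP and control, on the log2 signal scale, drawn for the 19279 features within 1 of 0 (295 lie beyond), with the 34 members as ticks coloured by role. Bars count features per bin of 0.05. The members lie between -0.21 and 0.43, and their median is 0.17 where that of all features is 0.00.

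Promoter sequence was used to show what the members share beside their RNA values. RefSeq (assembly GRCm38.p6) gave a window of 250 bases before and 50 after the gene start for 27 of the 34 members. Windows were searched on both strands for a sterol regulatory element form, TCACNCCAC, at which SREBP binds in classic sterol promoters, for CCAAT, the box bound by NF-Y, which works with SREBP, and for the E-box CACGTG. The element form was in 1 of 27 members, Hmgcs1, beside 1.42% of 10549 tested genes with a window. A CCAAT box was in 21 of 27, or 77.8%, beside 42.8% of those tested genes, and 10 of 27 held at least 2 in a window beside 16.2%. By role, CCAAT was in 14 of 15 sterol enzymes, 3 of 4 regulators and 4 of 8 fatty acid enzymes. The E-box was in 5 of 27, with 3 sterol enzymes, 2 regulators and 0 fatty acid enzymes, beside 11.5%. The members with a CCAAT box had a median difference of 0.17 (21 members) and those without had 0.13 (6 members). A match of letters describes the window and does not show that a factor binds there. For the sterol regulatory element only this form was searched, so a window without a match is not shown to lack such an element.

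The 250 bases before the start are shown for 6 members: the 5 of the 7 at an unadjusted p under 0.05 that have a window, and Mvk, the sterol enzyme with the lowest difference. They were chosen after their values were seen, to show how the boxes are placed. They lie at chr13:119690101-119690350 on the plus strand (Hmgcs1), chr13:8885356-8885605 on the plus strand (Idi1), chr5:4104698-4104947 on the minus strand (Cyp51), chr2:155517793-155518042 on the plus strand (Acss2), chr11:120824548-120824797 on the minus strand (Fasn) and chr5:114444019-114444268 on the plus strand (Mvk), 5′ to 3′ along each gene. Capitals mark matches on either strand, so ATTGG is CCAAT on the other strand.
Hmgcs1: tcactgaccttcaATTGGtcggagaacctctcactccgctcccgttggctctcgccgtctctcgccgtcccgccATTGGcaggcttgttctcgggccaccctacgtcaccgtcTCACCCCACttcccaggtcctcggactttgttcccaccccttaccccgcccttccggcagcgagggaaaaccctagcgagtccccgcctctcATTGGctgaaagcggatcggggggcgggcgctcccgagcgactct
Idi1: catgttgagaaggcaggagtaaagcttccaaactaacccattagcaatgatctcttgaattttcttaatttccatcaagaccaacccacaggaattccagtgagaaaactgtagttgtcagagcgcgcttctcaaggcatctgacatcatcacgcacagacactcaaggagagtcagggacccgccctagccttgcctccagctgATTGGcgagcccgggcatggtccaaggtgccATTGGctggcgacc
Cyp51: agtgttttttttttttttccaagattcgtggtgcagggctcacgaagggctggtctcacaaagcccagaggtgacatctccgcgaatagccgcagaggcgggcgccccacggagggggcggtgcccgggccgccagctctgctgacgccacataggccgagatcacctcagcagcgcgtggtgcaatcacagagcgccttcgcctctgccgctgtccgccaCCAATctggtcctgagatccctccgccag
Acss2: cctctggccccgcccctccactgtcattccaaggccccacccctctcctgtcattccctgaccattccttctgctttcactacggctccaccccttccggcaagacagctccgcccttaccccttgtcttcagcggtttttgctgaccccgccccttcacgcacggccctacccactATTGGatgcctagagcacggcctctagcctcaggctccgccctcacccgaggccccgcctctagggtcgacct
Fasn: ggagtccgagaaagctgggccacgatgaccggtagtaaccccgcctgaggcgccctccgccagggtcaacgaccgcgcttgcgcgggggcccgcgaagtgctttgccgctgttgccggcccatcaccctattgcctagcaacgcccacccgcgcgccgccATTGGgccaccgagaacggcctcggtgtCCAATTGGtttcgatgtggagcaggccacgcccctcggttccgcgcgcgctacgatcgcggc
Mvk: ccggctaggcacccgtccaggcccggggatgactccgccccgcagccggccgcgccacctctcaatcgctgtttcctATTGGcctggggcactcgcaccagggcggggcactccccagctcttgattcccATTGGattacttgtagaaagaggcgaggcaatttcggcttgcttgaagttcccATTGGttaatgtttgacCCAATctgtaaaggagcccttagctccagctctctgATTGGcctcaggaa

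In Hmgcs1 the element form starts 137 bases before the gene start, between CCAAT boxes that begin 176 and 45 bases before it, and a further box lies past the start, outside the stretch shown. Mvk has the most boxes of the 6, with 5, and Fasn has 3, a pair of which share bases. Cyp51 and Acss2 have 1 each.

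In the sterol branch, 16 of 18 enzymes were above 0, with a median of 0.22, a 1.16-fold difference, and a range from -0.19 to 0.36. For 7 of the 18 the ADP arrays were all higher, beside 9.67% of features, and after quantile normalization the count was 3, beside 9.11%. Within slide 1 the median was 0.26 and within slide 2 it was 0.19, and 15 of 18 were above 0 in both.

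Hmgcs1, which makes HMG-CoA early in the mevalonate pathway, read 5.71, 5.86 and 5.71 on controls 1 to 3 and 6.07, 5.92 and 6.18 on ADP arrays 1 to 3. Every ADP array was above the highest control, and the difference was 0.29 ± 0.11 (SE, n = 3 per group), with 0.28 within slide 1 and 0.34 within slide 2. The enzyme that follows mevalonate kinase, Pmvk, read 4.82, 4.90 and 5.09 on controls 1 to 3 and 5.19, 5.11 and 5.44 on ADP arrays 1 to 3. Its lowest ADP array lay just above its highest control, control 3, and the difference was 0.31 ± 0.13. Idi1, which makes the isoprenoid dimethylallyl diphosphate, read 4.88, 4.97 and 4.78 on controls 1 to 3 and 5.23, 5.06 and 5.25 on ADP arrays 1 to 3. The ADP arrays were all higher and the difference was 0.30 ± 0.11, with 0.30 within slide 1 and 0.38 within slide 2. Its probe lies at chromosome 13, 8891524 to 8891583 on the mm9 build.

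Farnesyl diphosphate is the branch point to sterols, and Fdft1, squalene synthase, is the first enzyme past it. Fdft1 read 3.30, 3.32 and 3.47 on controls 1 to 3 and 3.63, 3.66 and 3.82 on ADP arrays 1 to 3. All 3 ADP arrays were higher than all 3 controls, by 0.34 ± 0.11, with 0.32 within slide 1 and 0.27 within slide 2. Its second probe had differences of -0.73 within slide 1 and 0.81 within slide 2, so the probes disagreed within slide 1. Sqle, squalene epoxidase, a flux-controlling enzyme, read 5.06, 5.35 and 5.25 on controls 1 to 3 and 5.45, 5.41 and 5.65 on ADP arrays 1 to 3. Control 1 was the lowest, ADP arrays 1 and 2 stood just above control 2 and ADP array 3 further above, with a difference of 0.28 ± 0.13.

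Cyp51, the lanosterol demethylase, had the largest difference of the sterol enzymes. It read 2.02, 2.15 and 1.76 on controls 1 to 3 and 2.47, 2.16 and 2.39 on ADP arrays 1 to 3. Control 3 was the lowest and ADP array 2 stood just above control 2, so the groups were barely apart, and the difference was 0.36 ± 0.15 (SE, n = 3 per group), or 1.28-fold, with 0.38 within slide 1 and 0.51 within slide 2. Its probe lies at chromosome 5, 4081471 to 4081530 on mm9. Sc5d, which makes a late double bond of the sterol ring, read 4.35, 4.45 and 4.29 on controls 1 to 3 and 4.48, 4.45 and 4.51 on ADP arrays 1 to 3. Its groups were barely apart, with 4.446 on control 2 and 4.455 on ADP array 2, and the difference was small, 0.12 ± 0.10. The array plot of the 14 members without overlap shows the same arrays side by side.

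**Figure D3:**
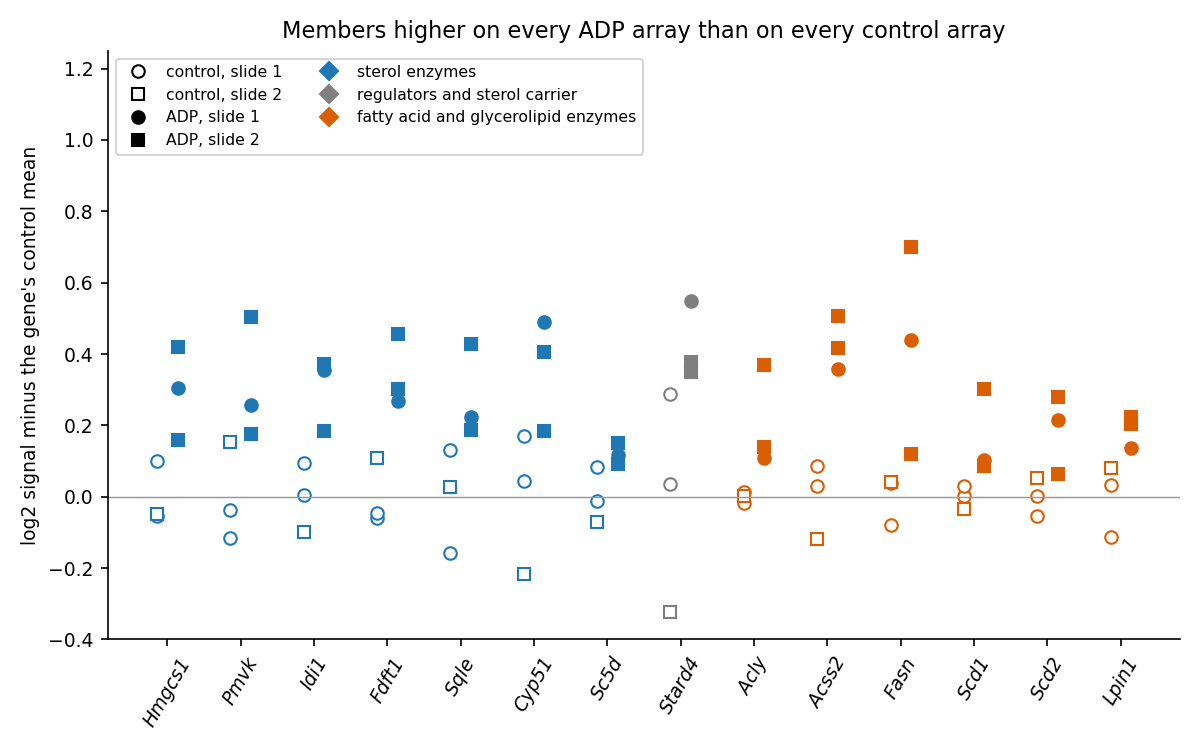
Level on each of the 6 arrays, relative to the mean of the 3 controls on the log2 scale, for the 14 members whose groups did not overlap. The markers of the ADP arrays lie above those of the controls for each gene, and the spread among controls is wide for Stard4, whose control 3 is the lowest.

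The other 11 sterol enzymes overlapped between the groups. The differences were 0.35 ± 0.17 for Hsd17b7, which reduces a sterol ketone, 0.27 ± 0.15 for Mvd, which decarboxylates mevalonate diphosphate, and 0.24 ± 0.24 for Acat2, the acetyl-CoA thiolase. They were 0.19 ± 0.18 for Ebp, the sterol isomerase, 0.17 ± 0.12 for Lss, lanosterol synthase, 0.17 ± 0.13 for Fdps, farnesyl diphosphate synthase, and 0.16 ± 0.12 for Nsdhl, a sterol dehydrogenase. For Sc4mol, a sterol methyl oxidase, the value was 0.16 ± 0.15 and for Tm7sf2, a sterol reductase, 0.13 ± 0.14. The value of Acat2 was 0.039 without control 3, 0.096 without ADP array 1 and 0.42 without ADP array 2, and that of Hsd17b7 was 0.22 without control 3. Hsd17b7 was 0.43 within slide 1 and 0.51 within slide 2, and its second probe was 0.44 on all arrays.

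Mvk and Dhcr7 were the sterol enzymes below 0. Mvk, mevalonate kinase, which starts the conversion of mevalonate to isoprenoids, was singled out after its values were seen. It read 3.71, 3.70 and 4.28 on controls 1 to 3 and 3.32, 3.90 and 3.90 on ADP arrays 1 to 3, so the groups overlapped, and the difference was -0.19 ± 0.23 (SE, n = 3 per group). Slide 2 arrays were brighter than slide 1 arrays in both groups, by 0.58 among controls and 0.58 among ADP arrays. Within each slide ADP read lower than control, with differences of -0.39 within slide 1 and -0.38 within slide 2, and the second probe had -0.21 and -0.54. With slide as a block the difference was -0.38, with a limma adjusted p of 0.0734, and it was called lower in both settings chosen after the data were seen. Without control 3, or without ADP array 1, each of which leaves a group on 1 slide, the difference was near 0 (0.0037 and 0.0053). Its probe lies at chromosome 5, 114910540 to 114910599 on mm9. Dhcr7, which makes cholesterol from its last precursor, read 1.73, 1.53 and 1.83 on controls 1 to 3 and 1.65, 1.43 and 1.59 on ADP arrays 1 to 3. The groups overlapped and the difference was -0.14 ± 0.12, with 0.02 within slide 1 and -0.32 within slide 2.

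The 4 regulators and the sterol carrier gave a mixed picture. Of the 5, 4 were above 0, beside 50.8% of features, and their median was 0.11. For 1 of the 5 the ADP arrays were all higher, beside 9.67% of features. The median was 0.01 within slide 1, 0.04 within slide 2 and 0.01 with slide as a block, so its size depended on the slides. Srebf2, the sterol-side factor, had a difference of 0.11 ± 0.24, with 0.24 within slide 1 and -0.36 within slide 2. Its control on slide 2 read 0.82 above those on slide 1. The second probe of Srebf2 had the opposite pattern, -1.07 within slide 1 and 0.44 within slide 2, so no direction can be given for this gene. Srebf1, the fatty-acid-side factor, read -0.29, -0.41 and -0.62 on controls 1 to 3 and -0.38, -0.64 and -0.52 on ADP arrays 1 to 3. The groups overlapped and the difference was -0.07 ± 0.13.

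Scap, the escort of SREBP, and Insig1, its retention factor and itself an SREBP target, had differences of 0.05 ± 0.12 and 0.12 ± 0.13. Scap was 0.01 within slide 1 and -0.05 within slide 2. Insig1 was at about 0 within slide 1 (-0.0007) and at 0.35 within slide 2. Stard4, a carrier that moves cholesterol between membranes, read 2.62, 2.88 and 2.26 on controls 1 to 3 and 3.13, 2.94 and 2.96 on ADP arrays 1 to 3. Control 3 was the lowest and ADP array 2 was just above control 2. The difference was 0.42 ± 0.17 (SE, n = 3 per group), with 0.39 within slide 1 and 0.69 within slide 2, and without control 3 it was 0.26. The second Stard4 probe gave 0.30.

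In the fatty acid branch 9 of 11 enzymes were above 0, with a median of 0.16, a 1.12-fold difference. For 6 of the 11 the ADP arrays were all higher, beside 9.67% of features. The count was 2 with median scaling, beside 7.57%, and 3 in the unscaled values, beside 9.74%. The median was 0.15 within slide 1 and 0.13 within slide 2, and 8 of 11 were above 0 in both.

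The 2 enzymes that make cytosolic acetyl-CoA come first. They are counted in this branch, although both branches start from acetyl-CoA, and the branch contrast was not computed without them. Acss2, which makes it from acetate, read 1.64, 1.69 and 1.49 on controls 1 to 3 and 1.97, 2.03 and 2.11 on ADP arrays 1 to 3. All ADP arrays stood well above all controls, and the difference of 0.43 ± 0.11 (SE, n = 3 per group), or 1.34-fold, was the largest of the 34, with 0.30 within slide 1 and 0.58 within slide 2. A second Acss2 probe had a difference of 0.45, and its groups did not overlap either. The probe of the first lies at chromosome 2, 155388416 to 155388475 on mm9. Acly, which makes acetyl-CoA from citrate, read 6.04, 6.01 and 6.03 on controls 1 to 3 and 6.13, 6.16 and 6.39 on ADP arrays 1 to 3. The ADP arrays were higher, by 0.21 ± 0.11, and by 0.12 without ADP array 3.

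Fasn, fatty acid synthase, which builds palmitate, read 0.21, 0.32 and 0.32 on controls 1 to 3 and 0.72, 0.40 and 0.98 on ADP arrays 1 to 3. ADP array 2 was only a little above the controls while the other 2 ADP arrays were far above, and the difference was 0.42 ± 0.16 (SE, n = 3 per group), with 0.46 within slide 1 and 0.37 within slide 2. Its probe lies at chromosome 11, 120667666 to 120667725 on mm9. The carboxylase before it, Acaca, which makes malonyl-CoA and is the committed step, had a difference of -0.07 ± 0.13, and was below 0 within both slides (-0.08 and -0.23). Me1, malic enzyme, which supplies NADPH, had 0.13 ± 0.12.

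The desaturases Scd1 and Scd2 put a double bond into palmitate and stearate. Scd1 read 0.79, 0.82 and 0.75 on controls 1 to 3 and 0.89, 0.87 and 1.09 on ADP arrays 1 to 3, and Scd2 read 6.40, 6.34 and 6.45 on controls 1 to 3 and 6.61, 6.46 and 6.67 on ADP arrays 1 to 3. Both were higher on all ADP arrays, by 0.16 ± 0.11 and 0.19 ± 0.11, and Scd1 by 0.09 without ADP array 3. Lpin1, a phosphatidate phosphatase of glycerolipid synthesis, read -0.38, -0.23 and -0.18 on controls 1 to 3 and -0.13, -0.04 and -0.06 on ADP arrays 1 to 3. The groups did not overlap and the difference was 0.19 ± 0.10.

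Fads1, a desaturase of polyunsaturated fatty acids, read 2.37, 2.29 and 2.23 on controls 1 to 3 and 2.24, 2.07 and 1.96 on ADP arrays 1 to 3. Its groups overlapped only where ADP array 1 met control 3, the difference was -0.21 ± 0.11, and it was below 0 in both slides. Its neighbour in that pathway, Fads2, had 0.13 ± 0.31, resting on ADP array 1, without which it was -0.18. Elovl6, the elongase of palmitate, had 0.14 ± 0.16.

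A difference between the sterol and the fatty acid branch was not resolved on these arrays. The median of the sterol enzymes, relative to each gene's mean over controls, was -0.05, 0.01 and 0.07 on controls 1 to 3 and 0.24, 0.12 and 0.34 on ADP arrays 1 to 3. The same median for the fatty acid enzymes was 0.00, 0.03 and 0.00 on controls and 0.14, 0.07 and 0.28 with ADP. For both branches every ADP array stood above every control. The sterol minus the fatty acid median was -0.05, -0.02 and 0.06 on controls and 0.11, 0.05 and 0.06 with ADP. The ADP arrays were all above controls 1 and 2 and overlapped control 3. On slide 2, control 3 (0.065) was above ADP arrays 2 (0.051) and 3 (0.060). With medians taken over the genes' differences instead, the sterol minus the fatty acid value was 0.05 over all arrays. It was 0.11 within slide 1 and 0.06 within slide 2. It was 0.03 without control 2, 0.04 without ADP array 1 and 0.08 without ADP array 2. Because the genes of a branch share arrays, no test is attached to it. Both branches had more enzymes above 0 than the 50.8% of all features. The plot of branch medians by array shows both.

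**Figure D4:**
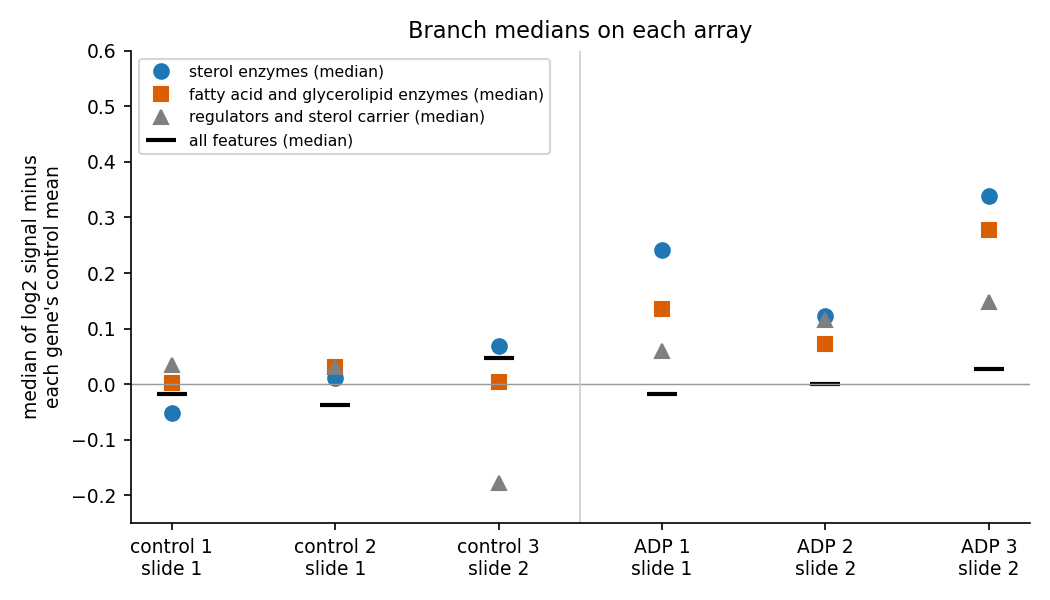
Median over the genes of each branch on each of the 6 arrays, as log2 signal relative to the mean of the controls for each gene. The ADP arrays read 0.12 to 0.34 for the sterol enzymes and 0.07 to 0.28 for the fatty acid enzymes, where the controls lie between -0.05 and 0.07 for both. Triangles show the regulators and sterol carrier, whose control 3 is at -0.18, and bars show all features.

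Of the members with several kept probes, 13 in all, the probes of 9 were all above 0, those of 1, Mvk, all below, and those of 3, Srebf2, Fads2 and Acaca, on both sides. The plot of single probes shows them.

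**Figure D5:**
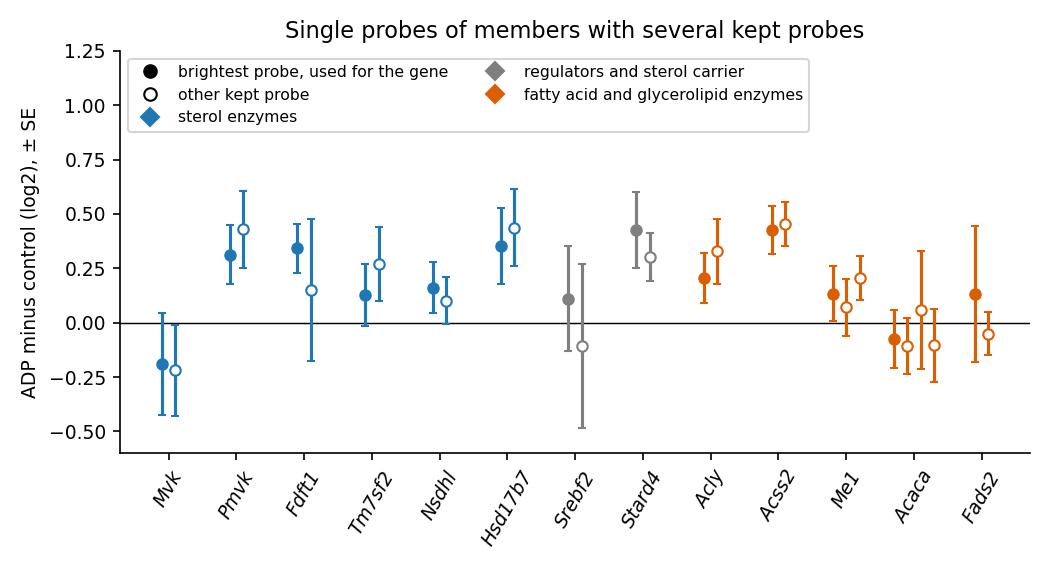
Difference between ADP and control on the log2 signal scale with SE over 3 arrays per group, for each kept probe of the 13 members that have several, the brightest one filled. Probes of 10 members lie on one side of 0, and those of Srebf2, Fads2 and Acaca on both sides.

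Other genes of lipid synthesis and SREBP control, 22 listed of which 20 were measured, had 12 above 0, beside 50.8% of features, and a median of 0.09. Within both slides 7 of 20 were above 0 and 6 below, beside 29.7% and 32.4% of features. Their median was 0.07 within slide 1 and -0.05 within slide 2. In limma 0 passed the adjusted p, beside 0.0% of features, and the unadjusted p was under 0.05 for 2 with a higher and 1 with a lower level, beside 6.55% and 6.18%. With slide as a block and trended, robust variances 1 was called higher and 2 lower, beside 4.52% and 5.38%. Of the genes named below, Acat1 was among those called lower, and Mlxipl and Acsl3 were not called. Without overlap, 2 of 20 were higher and 2 lower, beside 9.67% and 9.72% of features. Mlxipl, the carbohydrate-responsive factor ChREBP, read -1.90, -2.18 and -1.32 on controls 1 to 3 and -1.24, -1.12 and -1.16 on ADP arrays 1 to 3. Its ADP arrays were all higher, by 0.62 ± 0.22, with 0.80 within slide 1 and 0.17 within slide 2. Acat1, the mitochondrial thiolase of ketone metabolism, and Acsl3, an acyl-CoA synthetase, were without overlap and lower, with differences of -0.59 ± 0.13 and -0.20 ± 0.11.

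The genes of cholesterol export, esterification and LXR, 11 of 11 measured, had 7 above 0, beside 50.8% of features, and a median of 0.01. Within both slides 2 of 11 were above 0 and 5 below, beside 29.7% and 32.4% of features. Their median was -0.005 within slide 1 and -0.08 within slide 2. Without overlap, 0 of 11 were higher and 2 lower, beside 9.67% and 9.72%. In limma 0 passed the adjusted p, beside 0.0% of features, and the unadjusted p was under 0.05 for 0 with a higher and 2 with a lower level, beside 6.55% and 6.18%. With slide as a block and trended, robust variances 1, Abcg1, was called lower, beside 5.38%. Abcg1, an exporter of cholesterol to HDL, read 4.78, 4.53 and 4.84 on controls 1 to 3 and 4.09, 4.40 and 4.08 on ADP arrays 1 to 3. All ADP arrays were lower and the difference was -0.52 ± 0.14, with -0.56 within slide 1 and -0.59 within slide 2. Soat1, which esterifies cholesterol for storage, was lower without overlap, with a difference of -0.27 ± 0.10. Abca1, the other main exporter, had 0.19 ± 0.12 with overlap.

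Macrophage markers were present in every sample: 8 of 9 listed names were measured, Emr1 being the older name of Adgre1. The log2 of their summed signal, which rests mostly on the brightest probes, was 9.93 to 10.4 in controls and 10.2 to 10.6 with ADP. Cd14 was higher on every ADP array (0.79 ± 0.17) and Mertk lower on every one (-0.61 ± 0.18). In RNA of whole cultures, more cells of a type and more RNA per cell cannot be told apart. Neutrophil markers, 4 of 5 measured, summed in the same way to 4.48 to 4.59 in controls and 4.68 to 4.97 with ADP. S100a8 and Mpo were higher on every ADP array, and S100a9 and Elane overlapped. The difference of Mpo, a dim probe, was 0.47, and 0.17 with normexp background correction. The part of these markers in the members' values was not tested. Dendritic cell markers, 1 of 3 measured, summed to -4.27 to -3.81 and -4.37 to -4.15, and lymphocyte markers, 2 of 3, to -0.88 to 0.05 and -1.06 to 0.12. Stromal markers, 4 of 4, summed to 3.55 to 3.69 and 3.62 to 3.76. Of 4 adipocyte markers 0 were well above background on a whole group, and Adipoq, Plin1 and Lep, like Cd209a of dendritic cells, were so on none of the arrays.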

How the data were processed

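RNA of 6 macrophage cultures, 3 control and 3 with ADP, was measured on 1-colour Agilent mouse arrays. Spot intensity came from Agilent Feature Extraction 10.7.1.1, per the file headers and the submitters' processing notes, with background subtracted and no scaling between arrays; a deposited value table holds the same intensity. The labels' groups were used. Control spots and outlier spots were left out, spots of a probe were averaged, and log2 of the deposited intensity was taken minus the 75th percentile of each array (455 to 549). A probe was kept when well above background on all 3 arrays of a group; each gene was its brightest kept probe. Probe names were updated through a RefSeq table (GRCm38.p6), and probe coordinates are those of the files, on mm9. A two-sided limma 3.58.1 fit (R 4.3.3) with no block compared the groups over 19574 features, at a threshold of 0.05 after Benjamini-Hochberg adjustment; the code was tested on simulated data. Replicates are samples the submitters call different donors. Values on every array are given for members whose groups do not overlap and for the member with the smallest p in each direction of each role. The members and lists were chosen with earlier results of these data known, and single values of some listed genes are not reported here. Alternatives were other background correction, scaling, filters, probe rules, variances, blocks and leaving out each array. The number of arrays limits the precision.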

Additional observations from a re-analysis of the deposited data

How the results depend on the processing

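Over all features, 0 passed the adjusted p in limma at the settings planned, and 2491 did at an unadjusted p under 0.05; with slide as a block the latter was 4758 and in the unscaled values 1554. Leaving out 1 array at a time gave 1163 to 2983 at the unadjusted p, and 0 adjusted. Slide as a block with trended and robust variances, chosen after seeing the data, gave 1939 adjusted and 5110 unadjusted, and slide as a block with normexp correction, also chosen then, 1333 and 4634. Among members, these called 7 and 4 at the adjusted p and 17 and 12 unadjusted, against 7 unadjusted in the fit reported. Slide as a block alone gave 12, and quantile normalization, median scaling and no filter on dim probes gave 4 each. Leaving out 1 array gave 1 to 8 members. With every probe on its own, 11 of 50 kept probes of members passed, which counts probes and is not comparable with the 7 members. Beside the 2491 features of the fit reported, more passed with quantile normalization and fewer with median scaling. More also passed with every probe on its own, out of 26586 kept probes, and without the filter, out of a larger set of features. The count of members higher on every ADP array, 14 as reported, was 7 with quantile normalization and 9 with median scaling; for sterol enzymes (7) it was 3 with quantile normalization, and for fatty acid enzymes (6) it was 2 with median scaling and 3 in unscaled values. Unscaled values raised the median of all members to 0.25 and of fatty acid enzymes to 0.24, where that of all features was 0.08. The median of the regulators was 0.0060 with slide as a block, with or without trended and robust variances, -0.0013 with slide as a block and normexp, 0.013 within slide 1, and 0.013 to 0.13 without 1 array. The sterol minus fatty acid median was 0.11 within slide 1 and 0.03 to 0.08 without 1 array. The causes were not tested.

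Among alternatives other than the within-slide values, 6 members changed direction. With slide as a block, also with trended and robust variances, Scap was -0.020, Srebf2 -0.063 and Srebf1 0.0060; with normexp added to the block, Scap was -0.023 and Srebf2 -0.029. In unscaled values Acaca was 0.0032 and Srebf1 0.0061. Without 1 array, the ranges were -0.13 to 0.030 for Acaca, -0.18 to 0.35 for Fads2, -0.29 to 0.0053 for Mvk, -0.0015 to 0.13 for Scap, -0.16 to 0.0022 for Srebf1 and -0.072 to 0.38 for Srebf2. The cause was not tested. Nothing in the labels ties equal replicate numbers to 1 donor. The deviations of same-numbered arrays from their group means correlated at 0.42, -0.40 and 0.43 for numbers 1, 2 and 3. Not every array correlated best with its own number. The arrays numbered 1 shared slide 1 and those numbered 3 shared slide 2, while those numbered 2 lay on different slides. These values cannot tell a shared slide from a shared donor or day, so no pairing was read from them. With the number as a replicate block, limma called 0 features and 0 members. At an unadjusted p under 0.05 it had 6 of 34 members, beside 2494 of 19574 features.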
